A study of Mus musculus with 2 samples.

Results

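MS4A genes, which encode small proteins that cross the cell membrane several times, were followed in 2 macrophage populations of the injured mouse heart. The members were chosen by name, as 8 genes known from macrophages and other leukocytes: Ms4a4a, Ms4a4b, Ms4a4c, Ms4a6b, Ms4a6c, Ms4a6d, Ms4a7 and Ms4a8a. Earlier results of these data were known when the choice was made. A probe set with that single gene symbol was found for 7 of the 8, of 19505 genes in all, and Ms4a4a was not analysed here. MHCII+ macrophages and MerTK- macrophages were sorted from the CD45+CD11b+ cells of hearts of male wild-type C57BL/6 mice, 10 weeks old, after ischemia–reperfusion (IR), in which a coronary artery is closed for a time and then reopened. Both populations came from IR hearts, with cells of several hearts pooled for a sample, and the study treats the MHCII+ cells as a subset of MerTK+ macrophages. The time between IR and sorting is not stated for these arrays. Each population had 1 array, so differences had no replicate spread to be read against, no test was possible, and precision is limited by the number of arrays.

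Proteins of the MS4A family sit at the cell surface or in endosomes, where several act beside immune receptors and tune their signals. The best known are CD20 on B cells (Ms4a1) and the beta chain of the high-affinity IgE receptor on mast cells (Ms4a2). The genes lie in a cluster on mouse chromosome 19, and several of them are used by monocytes and tissue macrophages. In humans, the MS4A locus is tied to the level of soluble TREM2, a lipid receptor of macrophages and microglia.

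Values are log2 intensities as deposited, and a difference is MHCII+ minus MerTK-. A detection floor was taken from the probe sets of smell and taste receptors, as their 95th percentile per array, which was 4.23 for MHCII+ and 4.67 for MerTK-. Of all genes, 10521 (53.9%) exceeded it in the population where they were higher. All 7 measured MS4A members exceeded it in both populations. Genes of the sort differed in the direction of the gates. The class II gene H2-Aa had 16.71 (MHCII+) and 8.39 (MerTK-), 321-fold apart, and Mertk 8.77 (MHCII+) and 5.97 (MerTK-), 6.99-fold apart. The 95th percentile of the negative-control probe sets was 9.03 (MHCII+) and 9.66 (MerTK-). Both Mertk values and the MerTK- value of H2-Aa lay below it. The study places the MHCII+ cluster among cells that lack CCR2, but Ccr2 had 16.15 (MHCII+) and 15.18 (MerTK-), 1.95-fold higher in MHCII+ macrophages. The deposited values of 337 probe sets (MHCII+) and 331 probe sets (MerTK-) were above 16, the range of a 16-bit scanner. How the scale came to pass it is not stated, and folds are those of the deposited scale.

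All 7 members were higher in MHCII+ than in MerTK- macrophages, and 1 of them, Ms4a7, was so by at least 2-fold. The share of all genes above the floor that passed 2-fold towards MHCII+ was 13.4%, so 1 of 7 is near that background. No member was 2-fold higher in the MerTK- cells, against 6.89% of all genes. Genes with any difference towards MHCII+ macrophages made up 58.4% of those above the floor. The median difference of the 7 members was 0.82, beside 0.15 for all genes above the floor. The other 6 members were between 1.26-fold and 1.90-fold higher, and differences of this size have no measured error here. The split of the background depended on scaling, with 9.93% of genes past 2-fold towards MHCII+ and 9.55% towards MerTK- after centring on the median gene, and 10.1% (MHCII+) and 9.07% (MerTK-) after quantile normalization. More cells of a type and more RNA per cell cannot be told apart in sorted bulk samples.

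**Figure D1:**
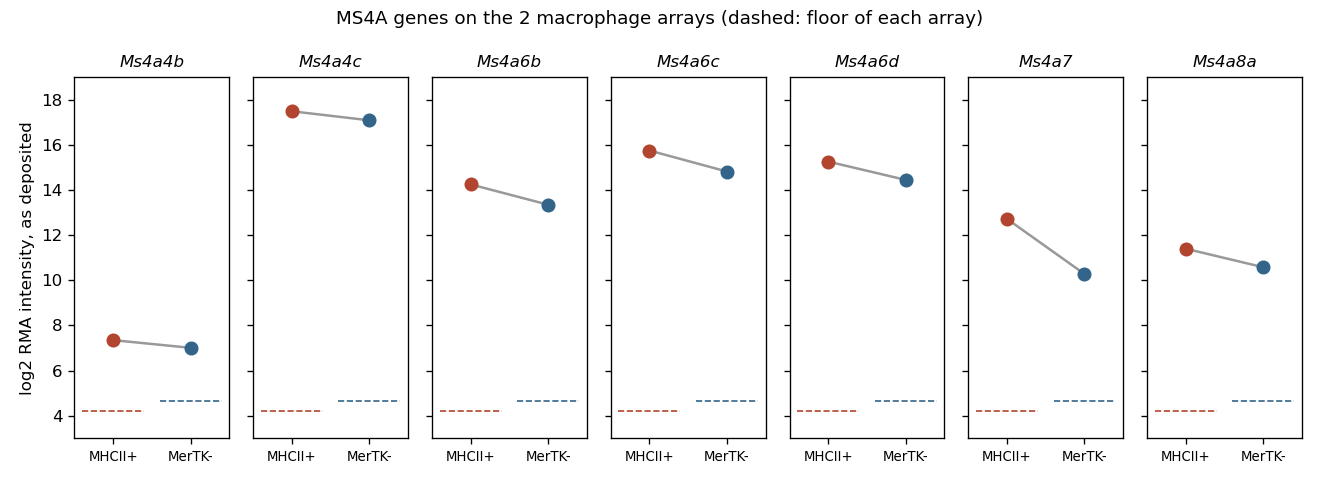
Log2 RMA intensity (y axis) of each measured MS4A gene in MHCII+ macrophages (red, left in each panel) and MerTK- macrophages (blue, right), with the floor of each array as a dashed line. Each point is 1 array, so there are no error bars, and the steepest line is that of Ms4a7 (12.72 in MHCII+, 10.28 in MerTK-).

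Ms4a7, a gene of mature macrophages that marks macrophages at the borders of the mouse brain, differed most among the members. Its value was 12.72 in MHCII+ macrophages, against 10.28 in MerTK- macrophages, a difference of 2.43 or 5.40-fold. It exceeded the floor by 8.49 log2 units in MHCII+ and by 5.61 in MerTK- macrophages. The 95th percentile of the negative-control probe sets was a stricter limit, 9.03 (MHCII+) and 9.66 (MerTK-), and Ms4a7 exceeded it in both populations, in MerTK- macrophages by less than 1 log2 unit. Of all genes above the floor, 0.789% had a difference at least as large in this direction. Among the 1500 genes whose mean level lay between 10 and 12, 11 genes (0.733%) had one, Ms4a7 included. The genes nearest to Ms4a7 over the 2 arrays, by Euclidean distance, were Sh3bgrl at 0.16, Plau at 0.37 and Tnip3 at 0.37. Sh3bgrl had 12.87 (MHCII+) and 10.32 (MerTK-), Plau, which encodes urokinase, 12.45 (MHCII+) and 10.55 (MerTK-), and Tnip3 12.47 (MHCII+) and 10.00 (MerTK-). A likeness over 2 arrays says no more than that these values were similar.

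The windows around the start sites of Ms4a7 are shown because it was the member that differed by over 2-fold. The RefSeq table, of build GRCm38.p6, gives it 2 start sites on the minus strand of chromosome 19, each with 250 bases before and 50 after the start. Capitals mark matches to TGANTCA, the AP-1 motif, which is bound by dimers of FOS and JUN family proteins, a group of factors to which ATF3, studied in the paper, is related. The window at the upstream start, chr19:11336097-11336396, had no match, and the other, chr19:11334646-11334945, had 1, at base -81 from the start.
Ms4a7 upstream start: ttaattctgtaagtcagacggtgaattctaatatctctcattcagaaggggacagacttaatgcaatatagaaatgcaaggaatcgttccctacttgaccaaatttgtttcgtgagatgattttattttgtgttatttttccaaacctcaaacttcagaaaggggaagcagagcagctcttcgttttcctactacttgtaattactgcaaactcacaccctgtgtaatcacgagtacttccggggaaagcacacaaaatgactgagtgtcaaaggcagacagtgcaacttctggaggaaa
Ms4a7 downstream start: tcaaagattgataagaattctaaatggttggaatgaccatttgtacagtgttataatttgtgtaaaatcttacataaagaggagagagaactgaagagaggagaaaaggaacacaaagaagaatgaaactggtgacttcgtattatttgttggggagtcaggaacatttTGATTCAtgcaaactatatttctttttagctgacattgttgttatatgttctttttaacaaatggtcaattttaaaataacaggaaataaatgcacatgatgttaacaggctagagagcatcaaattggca

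**Figure D2:**
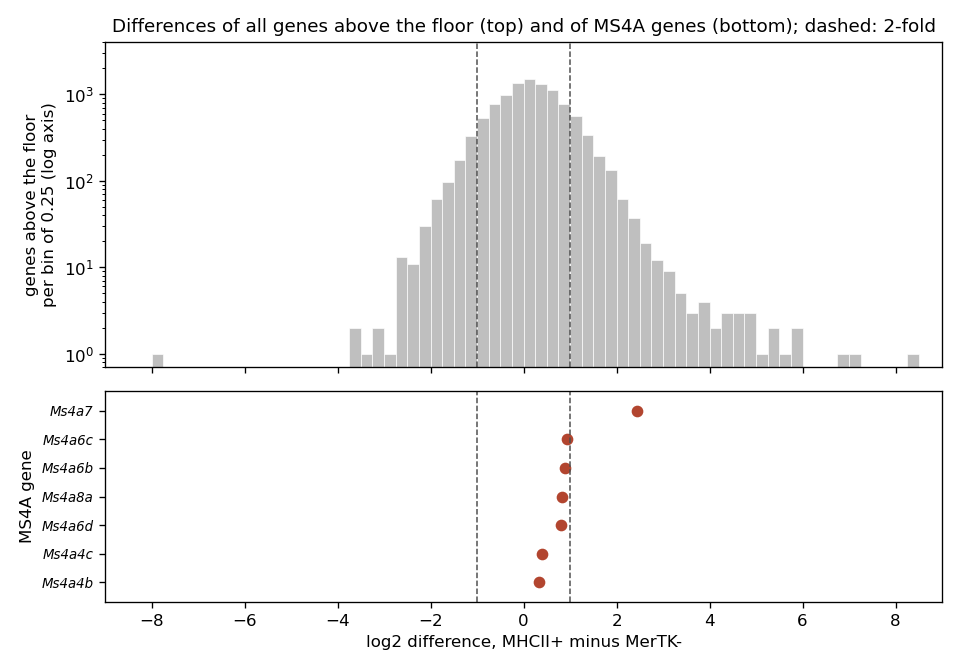
Top, histogram of the log2 difference, MHCII+ minus MerTK- (x axis), of the 10521 genes above the floor, with the number of genes per bin of 0.25 on a log axis. Bottom, the difference of each measured MS4A gene on the same x axis, 1 array per population. The 7 points lie right of 0, and of them Ms4a7 (2.43) lies past the 2-fold line.

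Ms4a8a, which mouse macrophages are known to induce in tumours and under alternative activation, had 11.40 (MHCII+) and 10.58 (MerTK-). The difference of 0.82 (1.77-fold) was the median of the members. Of the 1500 genes of the same mean level (10 to 12), 17.1% had a difference as large. Its window on the minus strand, chr19:11081054-11081353 in GRCm38.p6, had an AP-1 match at base -244, in capitals in the sequence that follows.
Ms4a8a: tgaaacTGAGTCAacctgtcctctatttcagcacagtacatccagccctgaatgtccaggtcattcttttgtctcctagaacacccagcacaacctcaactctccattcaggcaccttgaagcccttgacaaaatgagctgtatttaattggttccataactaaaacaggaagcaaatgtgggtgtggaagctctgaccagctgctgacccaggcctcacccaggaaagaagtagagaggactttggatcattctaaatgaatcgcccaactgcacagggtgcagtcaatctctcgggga

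The Ms4a6 genes, a group of close relatives in the same cluster, were bright in both populations and differed by similar amounts. Ms4a6d, whose protein joins VSIG4 in mouse macrophages to hold back the NLRP3 inflammasome, had 15.26 (MHCII+) and 14.45 (MerTK-), a difference of 0.81 (1.76-fold). Ms4a6c, often found in classical monocytes of the mouse, had 15.75 (MHCII+) and 14.82 (MerTK-), a difference of 0.93 (1.90-fold). Ms4a6b had 14.25 (MHCII+) and 13.35 (MerTK-), a difference of 0.90 (1.87-fold). The 3 genes were thus all higher in MHCII+ macrophages and short of 2-fold. Of the 313 genes with a mean level between 14 and 16, 16% had a difference at least as large as Ms4a6c and 20.4% one as large as Ms4a6d. Ms4a6b lay among the 771 genes between 12 and 14, of which 13.6% had one as large. The median difference of all genes was 0.01 at a level of 14 to 16 and -0.03 at 12 to 14. Whether the probe sets separate the RNA of these related genes was not tested, since no probe sequences were used here, and the same holds for the Ms4a4 genes.

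Of the measured members, Ms4a4b and Ms4a4c differed least. Ms4a4c, a gene of mouse monocytes, had 17.49 (MHCII+) and 17.09 (MerTK-), a difference of 0.40 (1.32-fold). Both values lay above 16, the range of a 16-bit scanner. Of the 168 genes with a mean level between 16 and 18, 31% had a difference as large. At that level 7 (4.17%) passed 2-fold towards MHCII+, against 13.4% of all genes above the floor. Ms4a4b, which in mouse T cells restrains proliferation and associates with the receptor GITR, had 7.35 (MHCII+) and 7.01 (MerTK-), a difference of 0.33 (1.26-fold). Ms4a4b exceeded the floor by 3.12 (MHCII+) and 2.34 (MerTK-), but lay below the negative-control limit in both populations. Of the 2290 genes with a mean level of 6 to 8, 44.1% differed as much as Ms4a4b. Centring on housekeeping genes turned the sign of both differences, to -0.12 for Ms4a4b and -0.05 for Ms4a4c.

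The start windows of Ms4a4b and Ms4a4c are shown as the most alike pair among the members. Over 28 pairs of windows, identity in a global alignment ran between 47.5% and 73.8%, with Ms4a4b and Ms4a4c at 73.8% and the next pair at 53.6%. Both lie on the plus strand, Ms4a4b at chr19:11443308-11443607 and Ms4a4c at chr19:11407411-11407710 in GRCm38.p6. The Ms4a4b window had an AP-1 match at base 23 after the start, in capitals, and the Ms4a4c window had none.
Ms4a4b: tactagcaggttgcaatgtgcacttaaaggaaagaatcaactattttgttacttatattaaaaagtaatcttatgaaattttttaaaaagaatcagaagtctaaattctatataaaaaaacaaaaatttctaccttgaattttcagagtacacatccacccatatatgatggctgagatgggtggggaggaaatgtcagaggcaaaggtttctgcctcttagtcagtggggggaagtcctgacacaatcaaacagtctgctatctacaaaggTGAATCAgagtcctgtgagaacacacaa
Ms4a4c: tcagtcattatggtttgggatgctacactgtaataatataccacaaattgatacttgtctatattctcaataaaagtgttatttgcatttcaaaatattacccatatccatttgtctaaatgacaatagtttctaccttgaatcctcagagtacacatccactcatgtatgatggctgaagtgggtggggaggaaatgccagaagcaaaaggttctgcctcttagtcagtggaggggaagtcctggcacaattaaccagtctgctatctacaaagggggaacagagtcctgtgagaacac

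RefSeq windows were found for 7 of the 8 members, not for Ms4a6d, 8 windows in all, and 3 of them held TGANTCA, in Ms4a7, Ms4a8a and Ms4a4b. Among all 32851 windows 7.81% held it. Among the 19 windows of the family, which include those of the members, 5 did. No member window held GAGGAAGT (PU.1, a master factor of the myeloid lineage), TGACGTCA (the CRE, which ATF3 can bind) or TTGCNNAA (C/EBP). None held the interferon-stimulated response element, searched as a pair of GAAA repeats with 2 bases between them. The shares of all windows that held these were 3.20% for PU.1, 1.79% for the CRE, 10.8% for C/EBP and 3.44% for the interferon element. The motifs were searched on both strands, and no match in the member windows overlapped another. A match describes the letters only, and binding was not measured here.

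Other genes of the family were mostly at background. Of 14 listed, 12 had a named probe set, and 8 did not exceed the floor in either population: Ms4a2, Ms4a3, Ms4a5, Ms4a10, Ms4a13, Ms4a15, Ms4a18 and Ms4a20. Of the 4 above the floor, 3 reached 2-fold towards MHCII+ macrophages as deposited, where 13.4% of all genes above the floor did. When the lower value was raised to the floor 2 did, where 11.8% of all genes did. Tmem176b and Tmem176a, related membrane proteins that take part in antigen handling in mouse dendritic cells, were those 2. Tmem176b had 13.10 (MHCII+) and 11.16 (MerTK-), 3.85-fold apart, and Tmem176a 8.81 (MHCII+) and 6.66 (MerTK-), 4.44-fold apart, the second below the negative-control limit in both populations. Ms4a4d had 6.31 (MHCII+) and 7.19 (MerTK-), both below the negative-control limit. Its difference of -0.88 had the opposite sign of the members and was short of 2-fold as deposited. Centring on the median gene or on housekeeping genes put all 4 genes past 2-fold, Ms4a4d among them. After the first, 9.93% of all genes passed it towards MHCII+ and 9.55% towards MerTK-, and after the second 5.22% (MHCII+) and 17.8% (MerTK-). Ms4a1, which encodes CD20, had 4.52 (MHCII+), 0.29 above the floor, and 2.79 (MerTK-), below it. It was the remaining gene counted as deposited, through its MHCII+ value only, so no fold is given. Ms4a19, added after its values were seen, had 3.13 (MHCII+) and 4.71 (MerTK-), and exceeded the floor in MerTK- macrophages by 0.04.

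**Figure D3:**
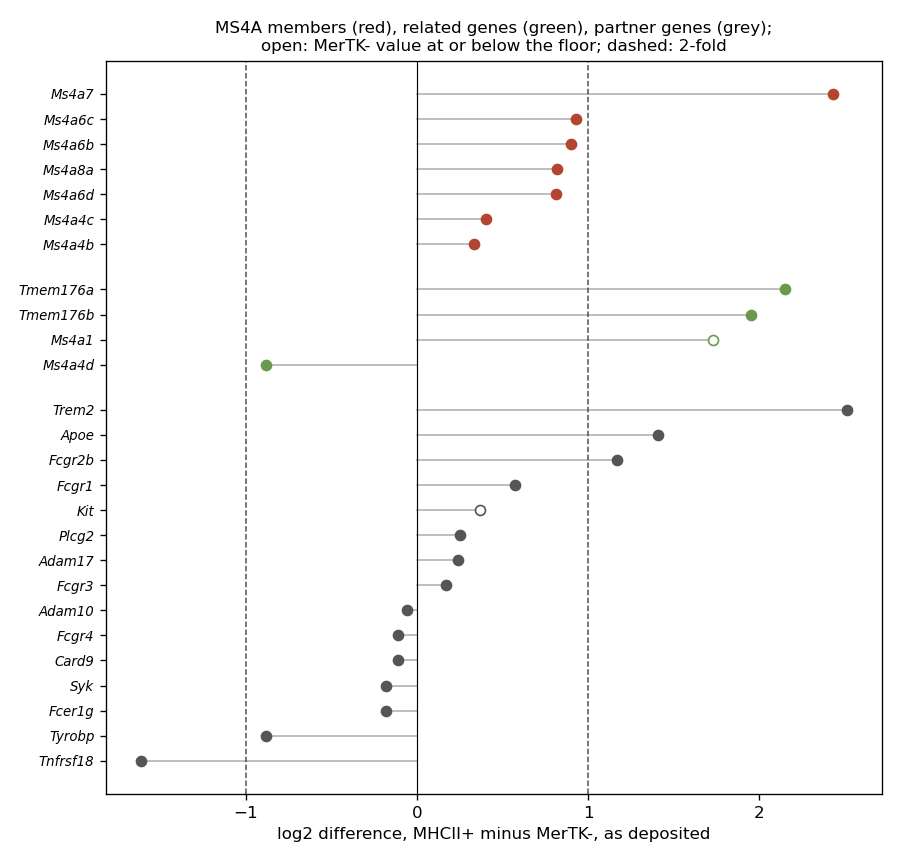
Log2 difference, MHCII+ minus MerTK- (x axis), of each gene above the floor among the MS4A members (red), related genes (green) and partner genes (grey), 1 array per population. Open points have a MerTK- value at or below the floor. Ms4a7, Tmem176a, Tmem176b and Trem2 lie between 1.95 and 2.51, and Tnfrsf18 is at -1.61.

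Genes that act with MS4A proteins or in the same receptor pathways went both ways. Of 18 listed, 15 were above the floor, 3 past 2-fold towards MHCII+ and 1 past it towards MerTK-, with a median difference of 0.17. Of all genes above the floor, 13.4% passed 2-fold towards MHCII+ and 6.89% towards MerTK-, with a median difference of 0.15. The partner counts are thus near that background, and the genes below are given as single values. Trem2 had 11.67 (MHCII+) and 9.16 (MerTK-), a difference of 2.51 (5.71-fold) beside the 2.43 of Ms4a7, with its MerTK- value below the negative-control limit. Apoe, whose product is a TREM2 ligand, had 18.60 (MHCII+) and 17.19 (MerTK-), 2.66-fold apart. The inhibitory Fc receptor gene Fcgr2b had 17.20 (MHCII+) and 16.03 (MerTK-), 2.25-fold apart. These 3 genes were higher in MHCII+ macrophages, and the adaptor genes of TREM2 and the Fc receptors leaned the other way as deposited. Tyrobp had 15.56 (MHCII+) and 16.44 (MerTK-), 1.84-fold apart, and Fcer1g 17.09 (MHCII+) and 17.27 (MerTK-), 1.13-fold apart. Differences as far in that direction were found for 8.9% (Tyrobp) and 32.2% (Fcer1g) of all genes above the floor. The count of partner genes past 2-fold depended on scaling. It was 5 after centring on the median gene and 3 after centring on housekeeping genes, against 4 as deposited. The shares of all genes past it towards MHCII+ and MerTK- were 9.93% and 9.55% after the first, 5.22% and 17.8% after the second. Tnfrsf18, which encodes GITR, the partner of MS4A4B in mouse T cells, had 6.09 (MHCII+) and 7.70 (MerTK-) and was 3.06-fold higher in MerTK- macrophages, both values below that limit. Clec7a, the gene of dectin-1, with which human MS4A4A associates, was not analysed here.

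Markers of other cells moved with the comparison. Resident macrophage markers were higher in MHCII+ macrophages for 15 of 15 measured, 14 of them by at least 2-fold, with a median difference of 3.65 beside the 0.82 of the MS4A members. Their summed intensity on the log2 scale was 16.76 (MHCII+) and 12.95 (MerTK-). Monocyte markers had a median difference of -0.34, with 4 of 11 higher in MHCII+ macrophages and sums of 20.44 (MHCII+) and 20.68 (MerTK-). Dendritic cell markers were higher in MHCII+ macrophages for 8 of 8 above the floor, 5 of them by at least 2-fold. Their sums were 11.90 (MHCII+) and 10.21 (MerTK-). Ccl22 had 8.48 (MHCII+) and 2.60 (MerTK-), Cd209a 8.62 (MHCII+) and 3.16 (MerTK-), and Ccl17 10.10 (MHCII+) and 5.33 (MerTK-). The MerTK- values of Ccl22 and Cd209a lay below the floor. Flt3, Zbtb46, Xcr1 and Clec9a exceeded the floor in neither population. Neutrophil markers were higher in MerTK- macrophages for 11 of 11 above the floor, with sums of 19.26 (MHCII+) and 20.89 (MerTK-). All 11 were so by at least 2-fold as deposited, and 9 with values raised to the floor. For all genes above the floor, the shares past 2-fold as deposited were 13.4% towards MHCII+ and 6.89% towards MerTK-. Markers of non-immune heart cells were also mostly higher in MerTK- macrophages. Cardiomyocyte markers were so for 9 of 10 above the floor, 6 of them by at least 2-fold, but their sums were 13.35 (MHCII+) and 12.78 (MerTK-), since Atp2a2 had 13.23 (MHCII+) and 12.21 (MerTK-). Endothelial markers were so for 7 of 8, 4 by at least 2-fold, with sums of 13.91 (MHCII+) and 15.71 (MerTK-). Fibroblast markers were so for 5 of 6, 2 by at least 2-fold, with sums of 12.51 (MHCII+) and 12.85 (MerTK-). The part of these cells in the MS4A differences was not tested.

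Lymphocyte markers are given beside Ms4a4b and Ms4a1, which lymphocytes use. Of 11 measured T cell markers 3 were above the floor, with sums of 7.66 (MHCII+) and 7.65 (MerTK-), and Cd3e, Cd3g, Cd8a and Cd8b1 exceeded the floor in neither population. Natural killer cell markers were higher in MerTK- macrophages for 6 of 8 above the floor, with sums of 8.52 (MHCII+) and 13.12 (MerTK-), the second carried by Gzma at 5.20 (MHCII+) and 13.04 (MerTK-). Klrd1, of the same list, went the other way, with 6.91 (MHCII+), below the negative-control limit, and 4.21 (MerTK-), below the floor. Of 9 measured B cell markers 4 were above the floor and all 4 were higher in MHCII+ macrophages, with sums of 9.30 (MHCII+) and 8.42 (MerTK-), while Cd79a and Pax5 exceeded the floor in neither. Whether lymphocytes added to Ms4a4b or Ms4a1 was not tested.

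The direction of the smaller differences rested on the scaling of the arrays. Centring on the median of genes above the floor, a shift of 0.15, left all 7 members higher in MHCII+ macrophages, with Ms4a7 at 2.29 and the others between 0.19 and 0.78. The 23 housekeeping genes had a median difference of 0.45, and centring on them left 5 of 7 members higher, with Ms4a7 at 1.98 and Ms4a6c next at 0.47. Under that scaling 5.22% of all genes passed 2-fold towards MHCII+ and 17.8% towards MerTK-. The 4 hybridization controls, RNAs added to every array, had a median difference of -0.93. Centring on them put all 7 members past 2-fold, between 1.27 and 3.37, together with 54.9% of all genes, against 0.665% that were 2-fold higher in MerTK- macrophages. Ms4a7 was past 2-fold under each of these scalings.

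**Figure D4:**
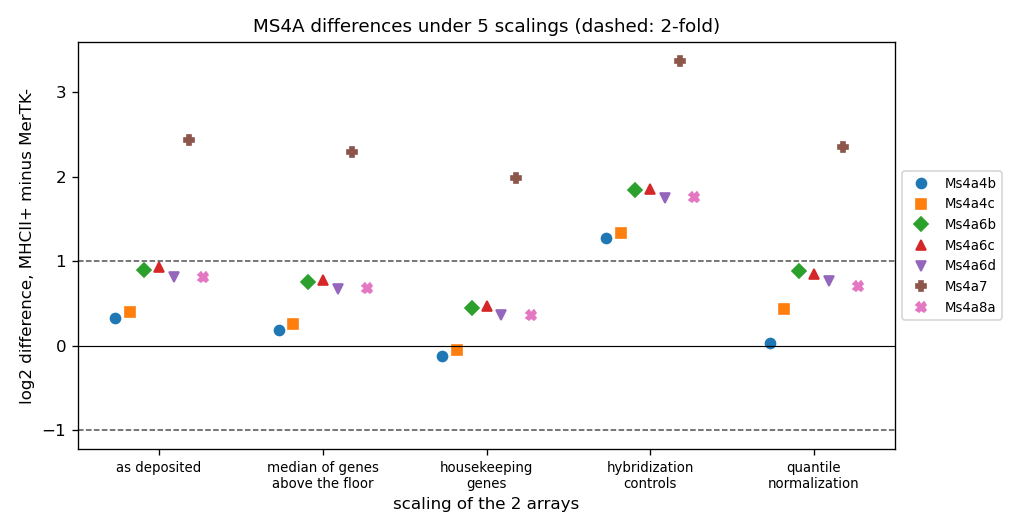
Log2 difference, MHCII+ minus MerTK- (y axis), of each measured MS4A gene under 5 scalings of the 2 arrays (x axis), 1 array per population, with dashed lines at 2-fold. Ms4a7 stays between 1.98 and 3.37, while Ms4a4b and Ms4a4c lie at -0.12 and -0.05 after centring on housekeeping genes.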

How the data were processed

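Gene expression was measured on Clariom S mouse arrays, 1 for each sorted population. The authors normalized the scans by Robust Multichip Analysis, with default settings and global scaling, and deposited log2 intensities. Affymetrix Expression Console is named in the submitters' processing notes, without a version. The series description names an older array, but the probe set names are those of Clariom S. No genome build is given for the probe sets. Of 28846 probe sets, 19572 had a single gene symbol in the platform annotation, and symbols were updated by Entrez ID from the RefSeq table of GRCm38.p6. The brightest probe set stood for a gene that had several, and each of the 7 measured members had 1. The floor came from 1452 sensory receptor probe sets. A gene was called at a 2-fold difference of the deposited values, the threshold of the study's methods. No test was run.

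All members were named whatever their values, as were related genes above the floor, partner genes at least 2-fold apart with Clec7a, Trem2, Tyrobp and Fcer1g, and the 3 genes nearest to the member that differed most. The members and lists were chosen with earlier results of these data known. Alternatives were 4 other scalings, 2 other floors and none, values raised to the floor, probe set means, and fold thresholds of 1.5 and 4. The fold calls were run on simulated data with planted changes well past 2-fold and little noise, so recovery was fixed in advance. That run checked the calculation only, not the array-to-array error. Windows were aligned with Biopython 1.88. Python 3.11.15, numpy 2.4.6 and pandas 2.3.3 were used.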

Additional observations from a re-analysis of the deposited data

Results flagged for a closer look

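Signal above the floor was found in 2 probe sets that carry no gene name here and whose numbers stand next to those of named MS4A probe sets. The number assigns no gene, and they entered no comparison above. The probe set next to that of Ms4a4c had 16.50 (MHCII+) and 15.25 (MerTK-), a difference of 1.25 (2.38-fold). The one between those of Ms4a5 and Ms4a7 had 8.85 (MHCII+) and 6.40 (MerTK-), a difference of 2.45 (5.46-fold), beside the 2.43 of Ms4a7. Unlike those of Ms4a7, both of these values lay below the negative-control limit, 9.03 (MHCII+) and 9.66 (MerTK-).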

How the results depend on the processing

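No paired analysis was possible because each population had 1 array. Each member difference was recomputed under up to 9 settings. Of 62 values, 54 kept their direction and their side of 2-fold, and 6 passed 2-fold after centring on hybridization controls. The other 2 turned after centring on housekeeping genes, Ms4a4b to -0.12 and Ms4a4c to -0.05. Each measured member had 1 probe set and exceeded the floor in both populations. The other floors, the raised values and the probe set means therefore could not change its difference. Only the 4 other scalings could, so the 54 include many values that were fixed in advance. Centring on hybridization controls gave 7 members at least 2-fold higher in MHCII+ macrophages, a median of 1.76 and 8 partner genes 2-fold apart, against 1, 0.82 and 4 as deposited. Under that scaling 54.9% of all genes passed 2-fold towards MHCII+. A floor from negative controls left 1 related gene 2-fold apart, against 3, and dropped Ms4a4b. With that floor 15.8% of all genes passed 2-fold towards MHCII+ and 8.17% towards MerTK-. A threshold of 1.5-fold gave 5 of 7 members higher in MHCII+ macrophages, where 27.5% of all genes passed it, and 4-fold left 1 related gene and 1 partner gene, where 2.21% of all genes passed it in either direction. The number of members at least 2-fold higher in MerTK- macrophages was 0 under each setting. With 1 array each, array-to-array error is unknown.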
